A study of Mus musculus with 9 samples.

Results

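Mitochondrial fatty acid oxidation was followed through 34 listed genes in the brown fat (brown adipose tissue, BAT) of mouse embryos, a tissue specialised for heat production. The genes were chosen by symbol for their known place in the pathway, with earlier results of these data known. Of the 34, 32 had an entry among the 30915 entries of the deposited expression table. Acsl3 and Cpt1b, the carnitine palmitoyltransferase of muscle and brown fat, are not analysed here. The embryos were untreated wild-type C57Bl6J animals taken on embryonic days E14.5, E15.5 and E16.5. There were 3 arrays (MoGene-2_0-st) per stage, and the labels describe each as its own RNA preparation from the combined BAT of 3 embryos. Each value is therefore a mean over a pool and over all cells of the dissected depot. No allele, transgene or agent separated the stages.

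Fatty acids enter oxidation in a fixed order of steps. Acyl-CoA synthetases activate them to acyl-CoA, and the carnitine shuttle carries long-chain acyl groups across the inner mitochondrial membrane. The beta-oxidation spiral then shortens them in repeated rounds, and the electron transfer flavoprotein delivers the electrons of the first step to the respiratory chain. In brown adipocytes this pathway fuels the respiration that uncoupling protein turns into heat.

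Most genes of the pathway rose on each day. The values are log2 expression values as deposited, and all tests were limma fits over the 9 arrays with Benjamini-Hochberg adjustment over 30915 entries and an adjusted p threshold of 0.05. For E15.5 against E14.5 (the first day), 25 of the 32 genes rose, 1 fell and 6 did not pass, where 9.07% of all entries rose and 11.2% fell. For E16.5 against E15.5 (the second day), 27 rose, 1 fell and 4 did not pass, where 11.2% of all entries rose and 8.46% fell. Over both days, E16.5 against E14.5, 27 rose and 1 fell, where 22% of all entries rose and 17.4% fell. In either direction these were 26, 28 and 28 genes, against 20.3%, 19.7% and 39.4% of all entries, and an F-test over the 3 stages called 28 genes, against 35.1%. A rise of at least 2-fold was called for 17 genes on the first day, 7 on the second and 24 over both days, against 1.63%, 1.42% and 5.44% of all entries. A called rise on each of the 2 days was found for 25 genes, against 5.65% of all entries. All 32 genes were among the 15458 entries at or above median brightness, of which the F-test called 9193. In a fit of these brighter entries alone, 20.7% rose on the first day, 22.7% on the second and 32.2% over both. The same fit called rises for 25, 27 and 27 of the 32 genes.

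The median change of the 32 genes was 1.04 on the first day, 0.76 on the second and 1.91 over both days (log2, as deposited). The median entry of the whole table moved by 0.03, 0.10 and 0.14 in the same comparisons, so that the medians relative to all entries were 1.01, 0.66 and 1.77. After quantile normalization the median entry moved by 0.01, 0 and 0.01, and the genes' medians were 1.05, 0.63 and 1.84. The 3 values of each stage lay apart and in rising order for 26 of the 32 genes, against 10.4% of all entries. These 26 were the 25 genes called on each day and Cpt1a.

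**Figure D1:**
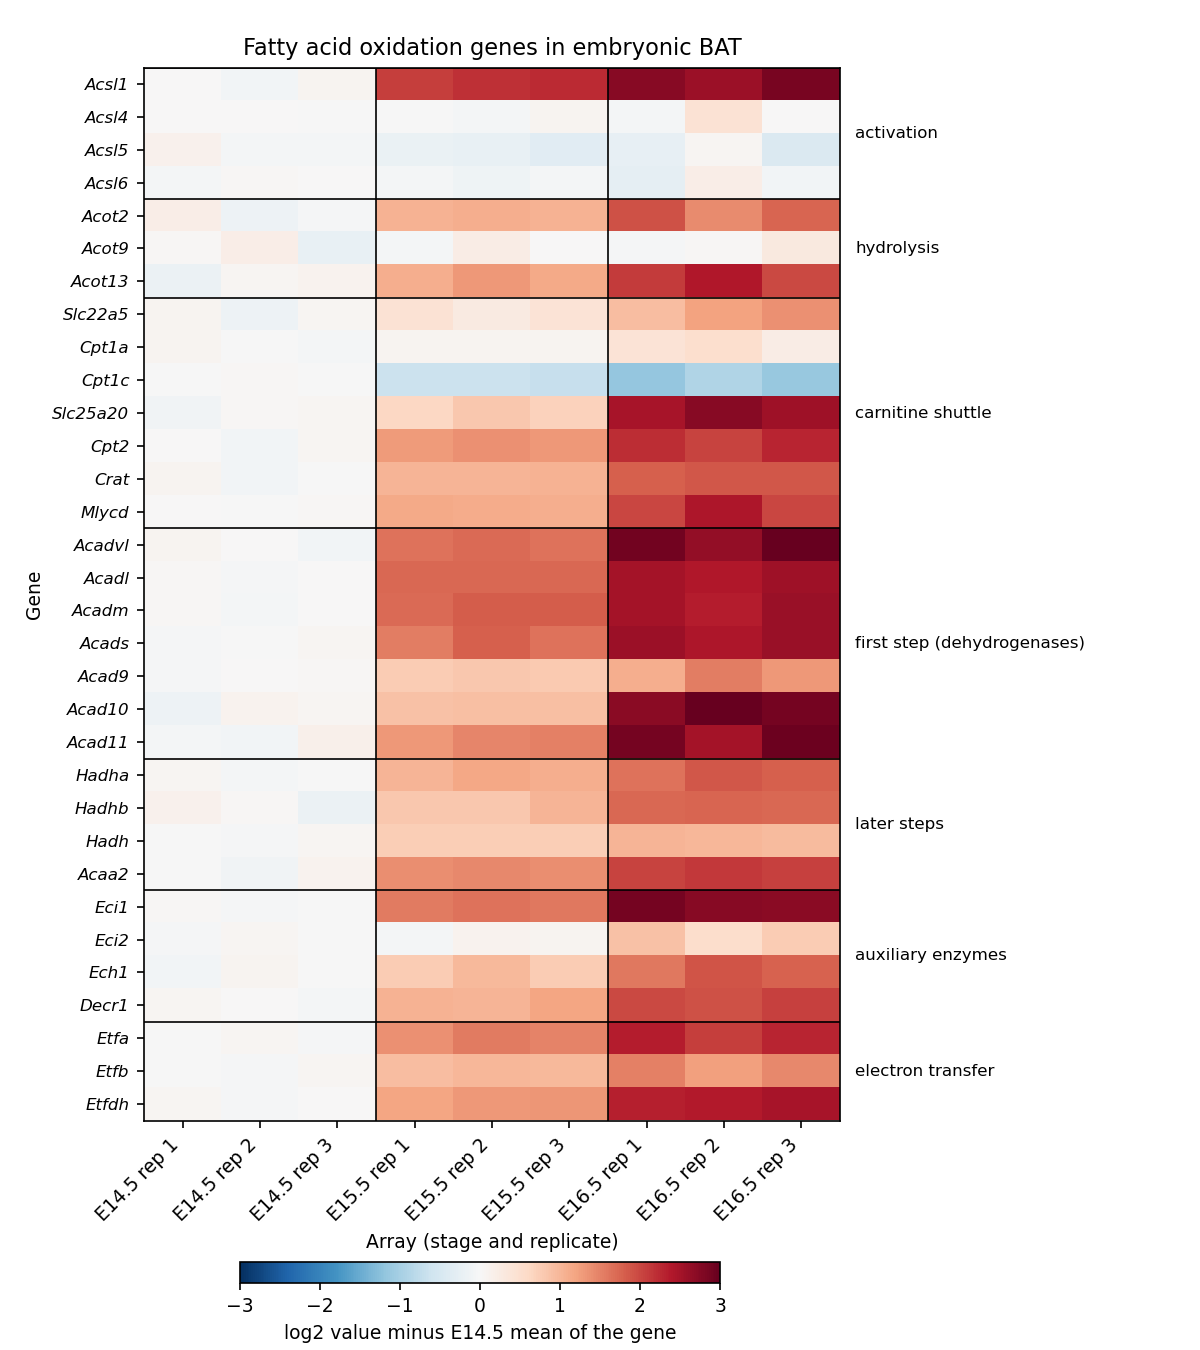
Colour shows the log2 value of each gene on each array minus the mean of that gene over the 3 E14.5 arrays, from blue (lower) to red (higher), with genes in rows grouped by role and the 9 arrays in columns by stage. Most rows darken at each stage, Acsl4, Acsl5, Acsl6 and Acot9 stay pale, and Cpt1c turns blue.

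The arrays of 1 stage resembled each other (Pearson's r across entries 0.9921 to 0.998) more than arrays of different stages (0.9522 to 0.989). These correlations are across entries, which are not independent replicates. E16.5 replicate 2 stood apart, with a median of 5.05 over all entries against 4.79 to 4.85 on the other 8 arrays, and a median of 3.66 against 3.16 to 3.29 over 1469 olfactory and vomeronasal receptor genes, which served as a gauge of the low end of the signal. Without it, 25 genes rose and 2 fell on the first day, 26 rose and 1 fell on the second, and 27 rose and 2 fell over both days. The added fall was that of Acsl5, and the lost rise was that of Cpt1a on the second day (log2 change 0.22, adjusted p = 0.0525). Of all entries, 14.3%, 11.6% and 20.5% rose in the same fits. Over all entries the second-day balance turned with scaling: 3461 rose and 2615 fell as deposited, while 3466 rose and 4039 fell after median centring. The p-values measure the spread between separate pools.

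The label of the tissue was set against its markers. Ucp1 (uncoupling protein) averaged 4.46 at E14.5, 5.52 at E15.5 and 9.22 at E16.5, and Dio2 (the deiodinase that activates thyroid hormone) averaged 3.95, 4.15 and 7.46. The fate regulator Ebf2 averaged 11.12, 11.39 and 11.44 at the same stages, and Prdm16, another, averaged 7.84, 8.72 and 8.90. Of 10 brown adipocyte markers, 10 rose over both days, as did 7 of 7 general adipocyte markers, against 22% of all entries. The brown list includes Ppargc1a, which is also in the list of regulators. All 6 macrophage markers and 15 of 16 skeletal muscle markers fell over both days, against 17.4% of all entries. Of the muscle markers, 15 fell on the first day and 6 on the second, against 11.2% and 8.46% of all entries. Some stayed bright at E16.5, such as Acta1 (mean 11.73) and Ckm (10.61), while Myod1 averaged 5.95.

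Of the 4 measured synthetases that activate long-chain fatty acids, 1 rose and 3 did not pass in any comparison of stages. Acsl1, the synthetase that directs fatty acids to oxidation in adipose tissue, had log2 values of 9.18, 9.08 and 9.26 at E14.5, 11.25, 11.36 and 11.40 at E15.5, and 11.89, 11.73 and 12.01 at E16.5. The stages did not overlap. Its log2 change was 2.17 ± 0.10 (SE) on the first day, a 4.49-fold rise, and 0.54 ± 0.10 on the second, a 1.45-fold rise (limma adjusted p = 1.35e-07 and 0.00206). Over both days Acsl1 was 6.53-fold higher. Acsl5, found on mitochondria and the endoplasmic reticulum, had 8.80, 8.59 and 8.60 at E14.5, 8.47, 8.43 and 8.32 at E15.5, and 8.41, 8.72 and 8.22 at E16.5. The E15.5 values lay below those of E14.5, but the 8.72 of E16.5 replicate 2 lay within the E14.5 range, and the change over both days was -0.21 ± 0.12 (95% interval -0.49 to 0.07, limma adjusted p = 0.196). Without E16.5 replicate 2 the change was -0.35 (limma adjusted p = 0.0124), and it was also called after median centring (-0.27).

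Acsl6, a synthetase of brain, had 5.37, 5.45 and 5.44 at E14.5, 5.35, 5.29 and 5.36 at E15.5, and 5.16, 5.63 and 5.34 at E16.5, the lowest and the highest both at E16.5. The change of Acsl6 over both days was -0.04 ± 0.11 (95% interval -0.29 to 0.21). Acsl4, which prefers arachidonic acid, had a change of 0.13 ± 0.12 over both days (95% interval -0.14 to 0.40), and its highest value, 8.38, was again that of E16.5 replicate 2. Acyl-CoA thioesterases undo the activation step. Acot13 and Acot2, both mitochondrial, rose by 2.16 ± 0.12 and 1.69 ± 0.13 over both days, whereas Acot9, also mitochondrial, had a change of 0.09 ± 0.13 (limma adjusted p = 0.571). Acot2 has a close cytosolic relative, Acot1, whose own entry had a change of -0.12 over both days (limma adjusted p = 0.323), and whether probes of either gene also bind the other transcript was not tested.

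The carnitine shuttle changed unevenly among its measured genes, which do not include Cpt1b. Of its 7 measured genes, 5 rose and 1 fell on the first day, where 9.07% of all entries rose and 11.2% fell. On the second day 6 rose and 1 fell, where 11.2% of all entries rose and 8.46% fell. Cpt1a, the entry enzyme known as the liver isoform, had log2 values of 8.83, 8.73 and 8.69 at E14.5, 8.84, 8.84 and 8.84 at E15.5, and 9.15, 9.25 and 8.98 at E16.5. The stages did not overlap, yet the steps were small. Its change was 0.10 ± 0.09 on the first day (limma adjusted p = 0.601), 0.28 ± 0.09 on the second (adjusted p = 0.0486) and 0.38 ± 0.09 over both days (adjusted p = 0.0058). The 3 values at E15.5 were identical as deposited, which lowers the measured spread of this gene, and the second-day call ended in 8 of the 9 fits that left out 1 array, with changes of 0.22 to 0.28 (adjusted p = 0.0525 to 0.134). Only leaving out E16.5 replicate 3 kept it. Cpt1c, a brain isoform of the endoplasmic reticulum with little transferase activity, had 7.49, 7.54 and 7.50 at E14.5, 6.86, 6.86 and 6.83 at E15.5, and 6.34, 6.61 and 6.37 at E16.5. It was the single gene of the pathway that fell, by 0.66 ± 0.09 on the first day (limma adjusted p = 0.000224), and it was 0.477-fold its E14.5 level at E16.5. Over both days 2 of 8 neuron markers fell as well, Nefl (-1.75) and Snap25 (-1.38), and 6 did not pass, where 17.4% of all entries fell. On the first day 3 of the 8 fell, Nefl, Snap25 and Tubb3 (-0.48), where 11.2% of all entries fell. Several of the 8 were dim, such as Tubb3, Elavl4 and Syt1 (means over all arrays 4.09, 4.06 and 4.07), so their falls can be understated. The mean of the 8 was 5.0 to 5.11 at E14.5, 4.66 to 4.68 at E15.5 and 4.47 to 4.70 at E16.5, and their part in the Cpt1c result was not tested.

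Apart from Cpt1a and Cpt1c, the measured shuttle genes all rose by more than Cpt1a over both days. Without Cpt1b, the entry step was measured only in part. Slc25a20, the carnitine-acylcarnitine translocase of the inner membrane, had 8.19, 8.33 and 8.34 at E14.5, 8.90, 9.11 and 8.99 at E15.5, and 10.77, 11.02 and 10.83 at E16.5, with a wide gap below the E16.5 arrays. It rose by 0.71 ± 0.10 on the first day and 1.87 ± 0.10 on the second, a 3.66-fold rise in 1 day (limma adjusted p = 0.000263 and 1.35e-06). Cpt2, which returns the acyl group to CoA inside the mitochondrion, had 9.27, 9.18 and 9.31 at E14.5, 10.53, 10.62 and 10.55 at E15.5, and 11.48, 11.29 and 11.54 at E16.5. Cpt2 rose by 1.31 ± 0.09 and 0.87 ± 0.09 on the 2 days and was 4.54-fold higher at E16.5 than at E14.5, with no overlap of stages. Crat, which buffers acetyl-CoA as acetylcarnitine, and Mlycd, which degrades the malonyl-CoA that inhibits the entry enzyme, rose by 1.84 ± 0.08 and 2.14 ± 0.11 over both days. Slc22a5, the plasma membrane carnitine transporter, rose by 1.17 ± 0.12 over both days. The first-day call of Slc22a5 (0.38, limma adjusted p = 0.0433) ended without any 1 of the 6 arrays of the E14.5 and E15.5 stages (0.31 to 0.43).

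**Figure D2:**
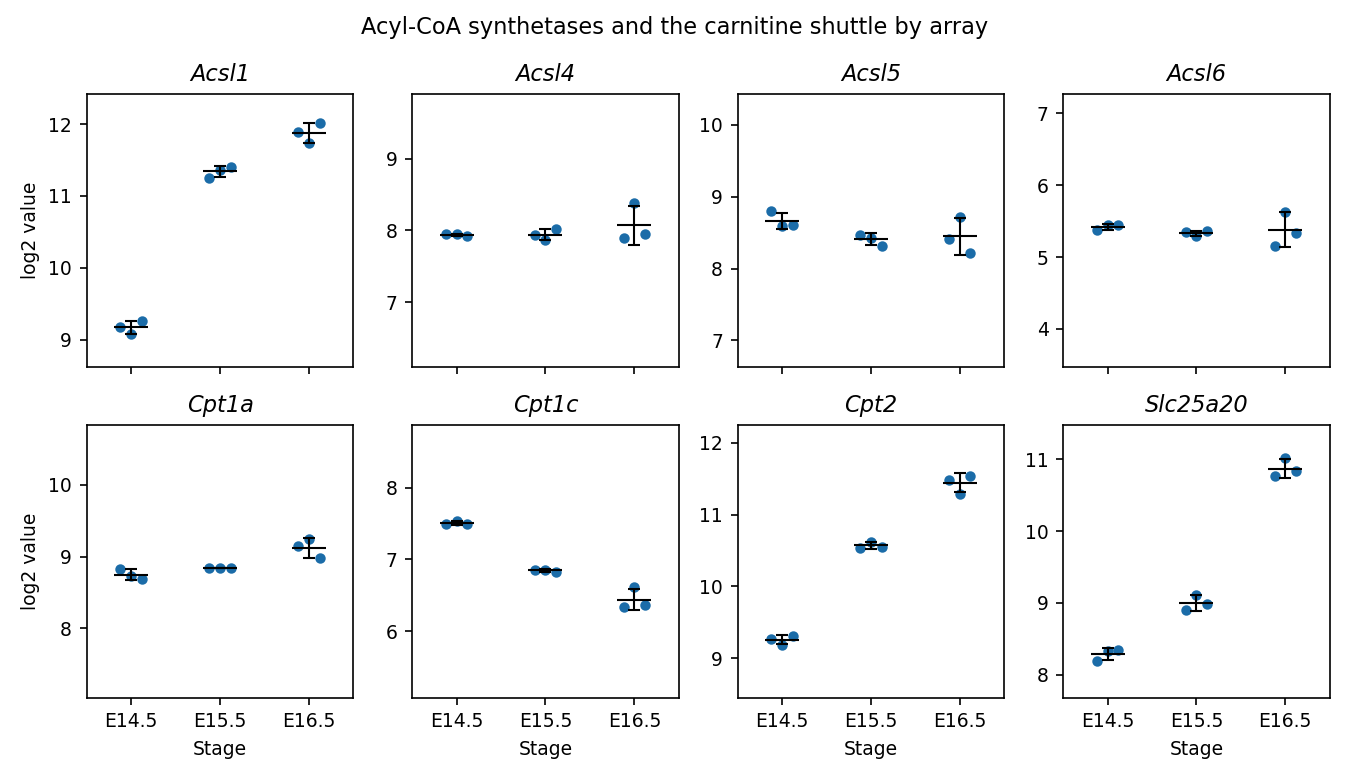
Each panel shows 1 gene, with a point for the log2 value of each array by stage and a bar for the mean ± SD of 3 arrays, on axes of equal height. Acsl1, Cpt2 and Slc25a20 climb at each stage, Cpt1c descends, and the 3 E15.5 points of Cpt1a coincide at 8.84.

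The acyl-CoA dehydrogenases, which open each round of the spiral, all rose on both days (7 of 7, against 5.65% of all entries). Their median change was 1.64 on the first day, 0.88 on the second and 2.54 over both. Acadvl, the very-long-chain enzyme of the inner membrane, had 7.96, 7.88 and 7.80 at E14.5, 9.50, 9.57 and 9.51 at E15.5, and 10.78, 10.51 and 11.06 at E16.5. Its rise was 7.48-fold over both days (2.90 ± 0.12, limma adjusted p = 1.58e-08), with no overlap between stages. Acadl, the long-chain enzyme, had 9.61, 9.53 and 9.57 at E14.5, 11.29, 11.29 and 11.30 at E15.5, and 12.06, 11.98 and 12.12 at E16.5, and the medium-chain enzyme Acadm had 9.77, 9.67 and 9.75 at E14.5, 11.44, 11.54 and 11.55 at E15.5, and 12.23, 12.09 and 12.33 at E16.5. Both rose far more on the first day, by 1.72 ± 0.07 and 1.78 ± 0.09, than on the second, by 0.76 ± 0.07 and 0.71 ± 0.09. The short-chain enzyme Acads had 9.34, 9.36 and 9.44 at E14.5, 10.92, 11.18 and 11.00 at E15.5, and 11.95, 11.81 and 11.98 at E16.5 and rose 5.81-fold over both days (2.54 ± 0.09). The 4 chain-length classes thus had both-day changes of 2.48 to 2.90.

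The other dehydrogenases were more varied. Acad9, which also serves the assembly of respiratory complex I, rose by 1.30 ± 0.11 over both days, and Acad11 by 2.76 ± 0.12. Acad10, a less studied relative, had 5.08, 5.33 and 5.28 at E14.5, 6.10, 6.13 and 6.14 at E15.5, and 7.93, 8.38 and 8.11 at E16.5. It rose by 0.89 ± 0.12 on the first day and by 2.02 ± 0.12 on the second, a 4.04-fold rise (limma adjusted p = 2.51e-06).

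Promoter windows were searched for 3 motifs on both strands, because regulators of mitochondrial genes are known to act through them. A RefSeq window (GRCm38.p6, 250 bases before to 50 after a start site) was held for 27 of the 32 genes. The NRF1 site motif (its letters are the capitals in the windows shown, with 1 free base in the middle) occurred in 4 of the 27, against 5.19% of 27025 genes. It stood in Acad10 (at 44 and 8 bases before the start site), Etfb (11 before), Etfdh (128 before) and Slc22a5 (131 before). The ERR motif TNAAGGTCA occurred in 1 of the 27, Acsl6, against 1.43% of genes, and the PPAR response element, a direct repeat of the unit AGGNCA with 1 base between its copies, in 0 of the 27, against 0.451%. The ERR motif and each unit of the repeat share the letters AGG and CA, so their matches may overlap. A match describes letters and not binding. The Acad10 window, shown because this gene had the largest second-day rise of the pathway and holds 2 NRF1 matches (capitals), lies on the minus strand at chr5:121660461-121660760.
Acad10: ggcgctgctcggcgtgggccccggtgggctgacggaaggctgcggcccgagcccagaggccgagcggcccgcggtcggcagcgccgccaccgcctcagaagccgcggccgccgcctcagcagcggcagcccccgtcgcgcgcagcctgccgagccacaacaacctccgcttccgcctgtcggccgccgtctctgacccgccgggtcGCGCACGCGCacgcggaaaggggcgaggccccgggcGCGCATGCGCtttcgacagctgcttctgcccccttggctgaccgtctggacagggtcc

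The later steps of the spiral rose in all 4 genes on both days, against 5.65% of all entries. Hadha and Hadhb encode the alpha and beta subunits of the trifunctional protein, which handles long-chain intermediates. Hadha had 10.68, 10.54 and 10.60 at E14.5, 11.64, 11.77 and 11.71 at E15.5, and 12.25, 12.47 and 12.40 at E16.5. Hadhb had 7.40, 7.29 and 7.09 at E14.5, 8.06, 8.06 and 8.27 at E15.5, and 8.99, 9.01 and 8.99 at E16.5. Neither gene overlapped between stages. Hadha rose by 1.10 ± 0.09 and 0.67 ± 0.09 on the 2 days and Hadhb by 0.87 ± 0.10 and 0.87 ± 0.10, so that over both days the subunits reached 3.40-fold and 3.33-fold (limma adjusted p = 4.59e-08 and 1.28e-07).

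Hadha and Hadhb lie head to head, with RefSeq start sites 273 bases apart. The Hadhb window on the plus strand, chr5:30155003-30155302, is shown because it holds 228 bases that are also in the window of Hadha (capitals). None of the 3 motifs occurred in it.
Hadhb: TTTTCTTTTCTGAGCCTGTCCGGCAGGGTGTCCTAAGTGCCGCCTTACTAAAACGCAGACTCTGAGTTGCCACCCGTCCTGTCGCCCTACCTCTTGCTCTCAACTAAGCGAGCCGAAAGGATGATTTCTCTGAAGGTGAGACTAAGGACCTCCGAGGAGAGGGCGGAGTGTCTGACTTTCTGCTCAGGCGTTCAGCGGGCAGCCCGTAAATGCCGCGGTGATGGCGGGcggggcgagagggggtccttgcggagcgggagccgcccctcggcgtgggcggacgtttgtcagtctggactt

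Hadh, the hydroxyacyl-CoA dehydrogenase for shorter chains, had 11.81, 11.78 and 11.88 at E14.5, 12.55, 12.56 and 12.55 at E15.5, and 12.85, 12.82 and 12.78 at E16.5. It had one of the smaller rises, 0.99 ± 0.07 over both days (1.99-fold). Its second-day call (0.26, limma adjusted p = 0.0258) ended without E15.5 replicate 1, 2 or 3 or E16.5 replicate 1 (0.25 to 0.27, adjusted p = 0.0541 to 0.0923). The thiolase Acaa2, which splits off acetyl-CoA, had 10.48, 10.40 and 10.61 at E14.5, 11.89, 11.94 and 11.90 at E15.5, and 12.53, 12.61 and 12.56 at E16.5 and rose 4.20-fold over both days (2.07 ± 0.08), with the stages apart.

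Auxiliary enzymes prepare unsaturated fatty acids for the spiral. Eci1, the enoyl-CoA isomerase of the matrix, had 8.93, 8.86 and 8.87 at E14.5, 10.46, 10.52 and 10.48 at E15.5, and 11.75, 11.63 and 11.60 at E16.5. It rose 6.83-fold over both days (2.77 ± 0.08, limma adjusted p = 1.48e-09). Its relative Eci2, found in mitochondria and peroxisomes, had a change of 0.05 ± 0.10 on the first day (95% interval -0.18 to 0.27, limma adjusted p = 0.869) and rose by 0.67 ± 0.10 on the second. The E15.5 values of Eci2 were 8.26, 8.43 and 8.41, against 8.28, 8.38 and 8.31 at E14.5, and the groups overlapped. Decr1, the dienoyl-CoA reductase, and Ech1, a dienoyl-CoA isomerase, rose by 1.99 ± 0.08 and 1.75 ± 0.10 over both days.

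Electron transfer rose in all 3 genes on both days, against 5.65% of all entries. Etfa, the alpha subunit of the electron transfer flavoprotein, had 8.98, 9.05 and 8.96 at E14.5, 10.37, 10.54 and 10.47 at E15.5, and 11.34, 11.06 and 11.27 at E16.5. Etfb, the beta subunit, had 10.62, 10.60 and 10.69 at E14.5, 11.57, 11.63 and 11.61 at E15.5, and 12.16, 11.86 and 12.09 at E16.5. The stages stayed apart in both. Etfa reached 4.69-fold over both days and Etfb 2.64-fold (2.23 ± 0.09 and 1.40 ± 0.09). The second-day call of Etfb (0.43) ended after median centring (0.36, limma adjusted p = 0.0556). Etfdh, which passes the electrons to ubiquinone, had 9.03, 8.94 and 8.98 at E14.5, 10.17, 10.28 and 10.30 at E15.5, and 11.31, 11.37 and 11.45 at E16.5. It rose 5.25-fold (2.39 ± 0.08, limma adjusted p = 3.79e-09). The windows of Etfdh (minus strand, chr3:79628718-79629017) and Etfb (plus strand, chr7:43443822-43444121) are shown because both hold the NRF1 motif (capitals). They were picked after the search. Over the pathway 4 of the 27 genes with a window held the motif, against 5.19% of all genes.
Etfdh: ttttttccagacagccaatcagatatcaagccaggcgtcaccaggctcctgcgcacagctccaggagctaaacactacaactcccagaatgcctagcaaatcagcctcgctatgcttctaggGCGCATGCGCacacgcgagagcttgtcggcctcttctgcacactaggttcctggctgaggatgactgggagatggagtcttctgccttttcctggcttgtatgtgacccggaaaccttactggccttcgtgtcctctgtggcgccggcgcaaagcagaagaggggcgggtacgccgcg
Etfb: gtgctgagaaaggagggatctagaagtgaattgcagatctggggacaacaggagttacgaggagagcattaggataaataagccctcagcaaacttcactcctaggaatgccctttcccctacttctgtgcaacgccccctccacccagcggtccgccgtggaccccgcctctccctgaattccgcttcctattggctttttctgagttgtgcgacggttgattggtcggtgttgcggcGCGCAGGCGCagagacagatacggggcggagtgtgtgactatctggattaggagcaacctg

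The size of the log2 step on each day differed among the genes. The change on the second day minus that on the first was tested in the same fit, in which both changes hold the E15.5 arrays. The difference passed upward for 2 genes and downward for 6 of the 32, against 2.79% and 2.41% of all entries (5.21% in either direction). The downward ones were Acsl1 (-1.63 ± 0.16), Acadm (-1.07 ± 0.15), Acadl (-0.96 ± 0.13), Acads (-0.77 ± 0.16), Acaa2 (-0.75 ± 0.14) and Etfa (-0.70 ± 0.16), all of which still rose on the second day. The upward ones were Slc25a20 (1.16 ± 0.17) and Acad10 (1.12 ± 0.20). By mean brightness the downward genes ranked at percentiles 96 to 99.5 of all entries, against 91 for Slc25a20 and 65.3 for Acad10. Whether the arrays understate steps of bright genes was not tested. Without E15.5 replicate 1, 2 or 3 the number of calls was 5, 4 or 4, and without E16.5 replicate 2 it was 13. Among those calls, Acsl1, Acadm, Acadl and Slc25a20 were kept in every fit that left out 1 array.

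**Figure D3:**
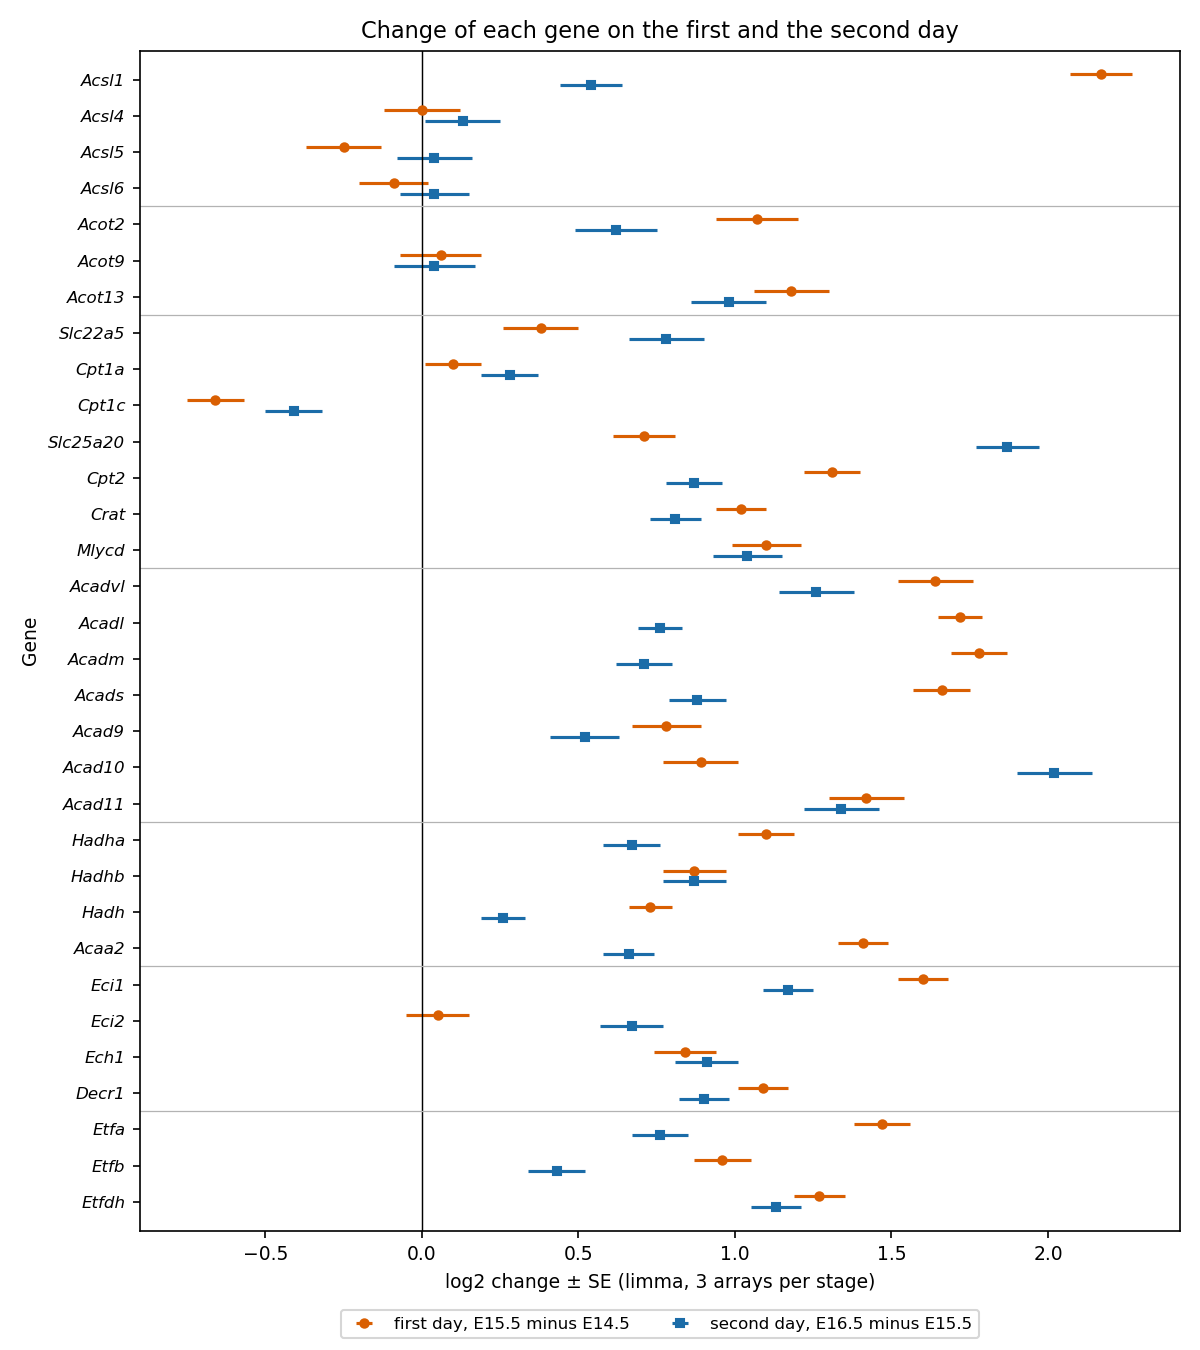
Points show the log2 change ± SE of each gene on the first day (orange circles, E15.5 minus E14.5) and the second day (blue squares, E16.5 minus E15.5), with genes grouped by role. Acsl1, Acadl, Acadm, Acads, Acaa2 and Etfa have their larger step on the first day, and Slc25a20 and Acad10 on the second.

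Regulators of the pathway moved with it in part. Of 16 listed, 11 rose and 1 fell on the first day, and 10 rose and 0 fell on the second. Over both days 13 rose and 1 fell. Of all entries, 9.07%, 11.2% and 22% rose and 11.2%, 8.46% and 17.4% fell in the same 3 comparisons. Ppara, the receptor that activates fatty acid oxidation genes, averaged 5.87 at E14.5, 7.98 at E15.5 and 9.71 at E16.5, a change of 3.84 over both days (limma adjusted p = 1.32e-08). The coactivator Ppargc1a changed by 3.21, Lpin1, a lipid phosphatase and coactivator, by 3.13, the mitochondrial deacetylase Sirt3 by 2.80 and the estrogen-related receptor Esrra by 2.21, all upward calls. Nrip1, a corepressor of oxidative genes in fat, fell (-0.56). The enzymes that make malonyl-CoA parted. Acacb, the mitochondria-associated form, rose by 4.33 over both days (adjusted p = 4.33e-09), while Acaca, the cytosolic form of lipogenesis, had -0.08 (adjusted p = 0.585).

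Neighbouring pathways gave these counts over both days, where 22% of all entries rose and 17.4% fell. Of 10 other mitochondrial oxidation genes, 8 rose and 1 fell. Echs1, the enoyl-CoA hydratase of the spiral, rose by 2.22, Acsf3, a matrix acyl-CoA synthetase, by 2.40 and Flad1, which makes FAD, by 2.55, whereas the synthetase Acsf2 fell (-0.35). Of 16 peroxisomal oxidation genes, 12 rose and 0 fell, with a median of 0.95 relative to 0.14 for all entries. Scp2 rose by 2.56, Ehhadh by 2.46 and Hsd17b4 by 1.66. On the first day 8 of these 16 rose and on the second 12, against 9.07% and 11.2% of all entries. All 21 TCA cycle genes rose on each day, against 5.65% of all entries. Their median was 1.03 on the first day and 0.56 on the second. The 3 with the smallest p over both days were Pcx (log2 change 2.64), Idh3a (2.23) and Dld (1.92). Among ketone body genes, Acat1, a mitochondrial thiolase, rose by 1.13 and Oxct1, which activates ketone bodies for use, by 0.30. Bdh1, which interconverts them, fell (-0.76). It was dim, with means of 4.71 at E14.5, 4.02 at E15.5 and 3.95 at E16.5, and its second-day change did not pass (-0.07).

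**Figure D4:**
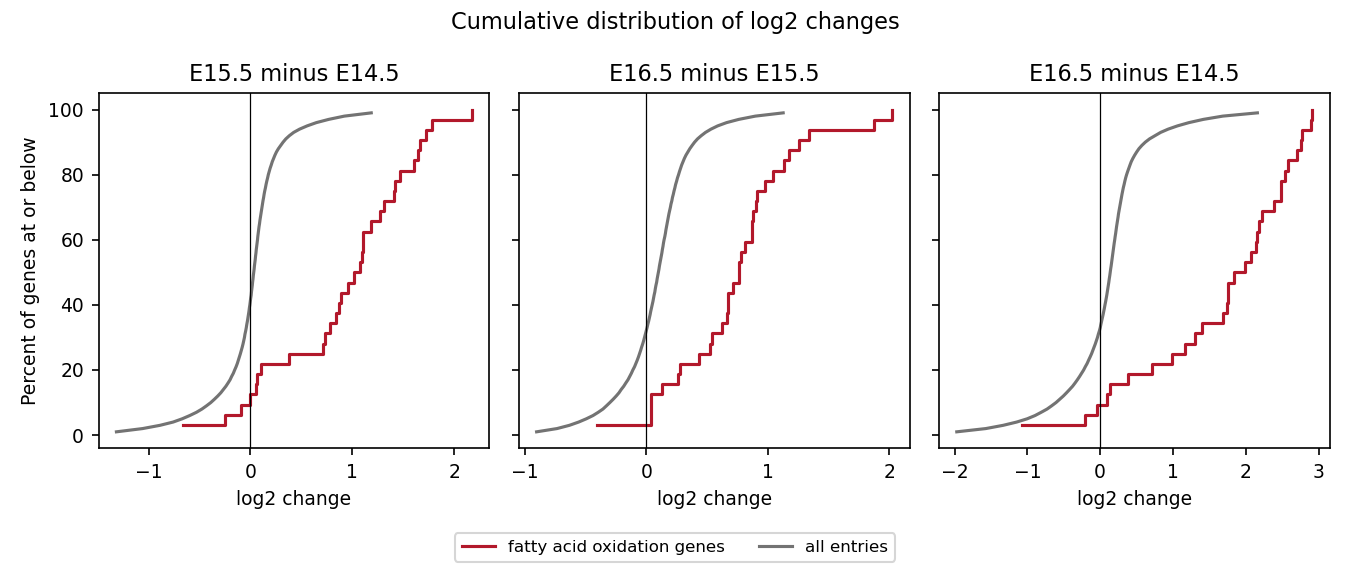
Curves show the percent of genes at or below each log2 change for the 32 fatty acid oxidation genes (red steps) and for all 30915 entries (grey, from the 1st to the 99th percentile), in 1 panel per comparison. The red steps lie to the right of the grey curve over most of their range, with medians of 1.04, 0.76 and 1.91.

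Markers of other cell types moved at the same time. The mean log2 value of 7 adipocyte markers was 8.43 to 8.65 at E14.5, 10.82 to 10.83 at E15.5 and 11.37 to 11.46 at E16.5. That of 16 skeletal muscle markers was 9.51 to 9.59, 8.17 to 8.43 and 7.93 to 8.23 at the same stages, and none of them rose in any of the 3 comparisons. The 6 macrophage markers averaged 7.94 to 8.07, 7.32 to 7.47 and 7.14 to 7.29. Of 8 erythroid markers, 4 rose and 2 fell over both days, where 22% of all entries rose and 17.4% fell. Of 8 liver markers, 3 rose and 0 fell, and their mean was 4.08 to 4.15, 4.28 to 4.35 and 4.32 to 4.51 at the 3 stages, with Alb (albumin) at 3.57, 3.72 and 3.70. In bulk tissue, a change in the number of cells of a type and a change in RNA per cell cannot be told apart. The part of these markers in the rise of the fatty acid oxidation genes was not tested.

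**Figure D5:**
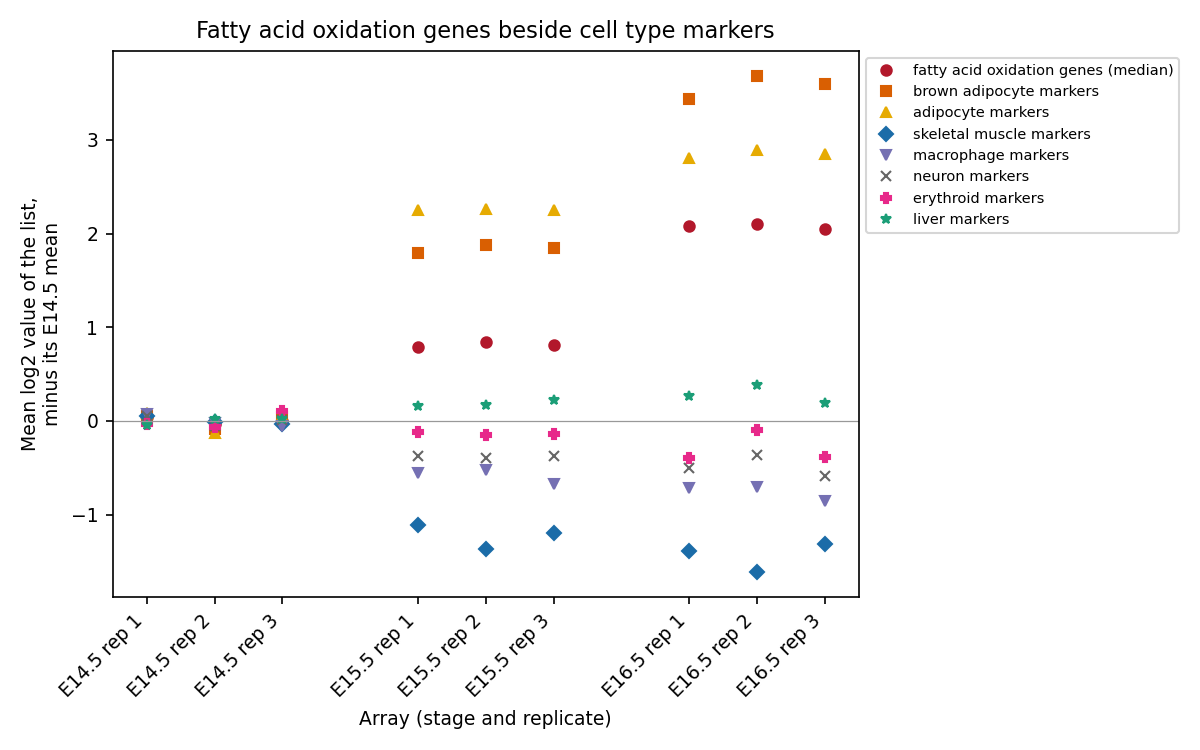
Points show, for each array, the mean log2 value of a marker list (the median for the fatty acid oxidation genes) minus its mean over the 3 E14.5 arrays. Fatty acid oxidation genes climb with adipocyte and brown adipocyte markers, while skeletal muscle and macrophage markers descend.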

How the data were processed

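Pooled RNA of each preparation went on 1 of 9 arrays after biotin labelling, per the labels' protocols. The deposited values are log2 expression; the submitters' processing notes name RMA and Partek 7.0. The annotation, the build and the step that gave 1 value per symbol are not given in the sources used here. RMA brings arrays to a common scale, so a shift of all genes is not measured. No detection calls were used, so changes of dim genes can be understated.

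Stage was the only term of the model (limma 3.58.1, R 4.3.3) over 30915 entries (6 residual and 4.59 prior degrees of freedom, prior SD 0.129). The fit was tested on simulated data for the first day. It recovered 89% of changes of 1 log2 unit and 38% of changes of a smaller size, with 4 false calls. A gene that did not pass may therefore still have changed. The simulation changed a far smaller share of the entries than was called on the real first day, so its rates need not hold for the real fit. No entry was filtered out. The number of arrays limits the precision. Replicate numbers of the titles showed no sign of pairing in the deviations from stage means. Same-numbered arrays correlated at -0.134 to 0.10, and differently numbered arrays at -0.133 to 0.113. The deviations of a stage are tied through their mean, so this check is limited.

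Genes were matched by symbol, and older symbols came from a RefSeq table of GRCm38.p6. Members, gene lists and tests were chosen with earlier results of these data known. All members are named, with each array's values at least for the main enzymes of each step and any member that fell. From each pathway list the called genes with the 3 smallest p-values per direction were named, with 5 regulators added; some genes of the ketone body list are not reported here. Alternatives were quantile normalization, median centring, leaving out dim entries, a trended prior variance, fits of the 2 stages compared, a replicate block and leaving out each array.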

Additional observations from a re-analysis of the deposited data

Results flagged for a closer look

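For 8 genes the change on the second day differed from that on the first, by the limma test of the difference. Acsl1 rose by 0.54 on the second day and 2.17 on the first, a difference of -1.63 (limma adjusted p = 3.94e-04). Acadm differed by -1.07, Acadl by -0.96, Acads by -0.77, Acaa2 by -0.75 and Etfa by -0.70, with limma adjusted p-values of 0.0021 to 0.0294. In the opposite direction, Slc25a20 differed by 1.16 (1.87 on the second day and 0.71 on the first, limma adjusted p = 0.00302) and Acad10 by 1.12 (2.02 and 0.89, adjusted p = 0.00967). The calls of Etfa, Acads, Acad10 and Acaa2 ended in 6, 4, 3 and 3 of the 9 fits that left out 1 array (differences of -0.79 to -0.62, -0.89 to -0.62, 1.0 to 1.23 and -0.81 to -0.71 over all 9).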

How the results depend on the processing

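No called change of the 32 genes turned its direction under any alternative. The number called was 26 on the first day, 28 on the second, 28 over both days and 28 by the F-test, and stayed within 1.5 times of this in every fit run. Leaving out 1 array gave 24 to 25 rises on the first day, 25 to 27 on the second and 27 over both days, with relative medians of 0.95 to 1.05, 0.57 to 0.78 and 1.71 to 1.88. The count of genes whose second-day change differed from the first-day change was 8 in the main fit. It was 14 with a trended prior variance, and 4 to 13 when 1 array was left out. Quantile normalization called 2 genes upward and 10 downward, median centring 2 and 8, and leaving out dim entries 3 and 9. Calls were gained for Hadh in 5 of 14 alternatives, Etfb and Eci1 in 4, Hadha and Eci2 in 3 and Cpt2 in 2. The cause of these shifts was not tested. With the replicate block, 26 genes were called on the first day, 26 on the second, 28 over both days and 7 for the difference between days. The block ended the second-day calls of Cpt1a (0.28, adjusted p = 0.0636) and Hadh (0.26, adjusted p = 0.0561) and the difference of Etfa (-0.70, adjusted p = 0.0651). The titles' numbers are not stated to mark a shared litter or day. Median centring also ended the second-day calls of Cpt1a (0.21), Hadh (0.19) and Etfb (0.36), and fits of the 2 stages compared those of Cpt1a and Hadh (adjusted p = 0.117 and 0.0846), while on the first day they called Acsl5 (-0.25, adjusted p = 0.0371).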

Other observations

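Genes linked to the electron transfer flavoprotein also rose. These were named after their values were seen. Etfrf1 and Etfbkmt, which the table lists under their older symbols Lyrm5 and Mettl20, encode a regulator of the flavoprotein and a methyltransferase of its beta subunit. Etfrf1 averaged 6.47 at E14.5, 8.05 at E15.5 and 9.18 at E16.5, a rise of 2.71 ± 0.10 over both days (log2, limma adjusted p = 8.56e-09). Etfbkmt averaged 6.02, 7.16 and 8.39, a rise of 2.38 ± 0.10 (adjusted p = 1.45e-08). The folate and FAD carrier Slc25a32 rose by less, 0.63 ± 0.10.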
